A study of Mus musculus with 24 samples.

Results

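The genes described here are the 2 cytoplasmic actins of the mouse and 8 proteins that bind actin, measured in the left ventricle. They were chosen by gene symbol, and all 10 symbols (Actb, Actg1, Tmsb4x, Tmsb10, Pfn1, Cfl1, Arpc1b, Coro1a, Capg and Lcp1) were found among the 14912 genes of the expression table. The hypertensive-LVH group (left ventricular hypertrophy) held 12 male wild-type C57BL/6J mice in which an osmotic mini-pump under the skin released angiotensin II (ANG II) over 7 days at a rate of 1500 ng/kg/min. The control group held 12 male wild-type C57BL/6J mice given saline, and no allele or other agent was named for either group. The age of the mice is not given in the sources used here, and the study's remaining 4 samples per group were not analysed here. Whole ventricular tissue was sequenced, so fewer cells of a type and less RNA per cell cannot be told apart.

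Actin monomers assemble into filaments that carry force and shape every cell. The muscle isoforms build the thin filaments of the sarcomere and the contractile bundles of smooth muscle, while beta-actin and gamma-actin build the cortex, the protrusions and the stress fibers of cells in general. In the heart these cytoplasmic isoforms are a minor part of the actin of cardiomyocytes and a main part of that of fibroblasts, endothelial cells and leukocytes. Thymosins hold monomers in reserve, profilin feeds them to growing ends, cofilin severs old filaments, the Arp2/3 complex starts branches, and coronins, capping proteins and plastins (fimbrins) shape the resulting network.

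Each value is an FPKM, the fragments of a gene scaled to the length of its transcript and to the mapped fragments of the library, adjusted before deposit. The adjustment was made gene by gene in 4 sets that each took 3 samples from either group. By their numbers these were samples 1 to 3, samples 4 to 6, samples 7 to 9 and samples 10 to 12. The sets show in exact ties between samples of a group. Leaving aside 278 genes of whole hundredths, pairs from the same set had 215 to 541 tied genes and pairs from different sets had 0. Summed over all genes, the values came to 460715 to 515185 per ANG II library and to 482319 to 567727 per control library. Numbers of reads are not given in the files, so the depth behind each value is unknown. The 12 cardiomyocyte markers summed to between 38110 and 69950 over all samples, so the defining markers of the labelled tissue were present in each of them. Samples 4 to 6 stood apart from the other sets. Fibroblast markers there summed to a mean of 2264 in the hypertensive-LVH group against 288.3 in the control group, whereas the other sets had means of 1270 to 1410 and of 970.1 to 1059. In these control samples 3 of the 10 markers, Col1a1, Col1a2 and Col3a1, had adjusted values that averaged −50.8, −12.6 and −44.4, and negative values entered the sum as 0. The change of each of the 10 genes is therefore also given without samples 4 to 6.

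The cytoplasmic actins are shown first by sequence because their transcripts can share reads. The coding sequences of Actb and Actg1 in the GENCODE vM21 annotation (GRCm38) are both 1128 bases long, with 1000 identical bases (88.7%) and a longest identical stretch of 62 bases. Their first 60 bases are given 5′ to 3′, with the bases that differ in capitals.
Actb: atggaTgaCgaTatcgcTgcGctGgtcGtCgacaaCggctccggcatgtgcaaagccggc
Actg1: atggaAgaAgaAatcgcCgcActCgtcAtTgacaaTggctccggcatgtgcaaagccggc
Reads were 150 bases long, so a read lying wholly in the coding part covers at least 1 base that differs, but how reads were divided between the isoforms and their processed pseudogenes could not be checked here. The thymosins are much less alike. Their coding sequences of 135 bases share 95 bases (70.4%), and the longest identical stretch is 10 bases.
Tmsb4x: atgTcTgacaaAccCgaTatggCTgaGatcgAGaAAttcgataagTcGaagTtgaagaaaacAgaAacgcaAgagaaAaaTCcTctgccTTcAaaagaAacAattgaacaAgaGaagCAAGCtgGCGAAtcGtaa
Tmsb10: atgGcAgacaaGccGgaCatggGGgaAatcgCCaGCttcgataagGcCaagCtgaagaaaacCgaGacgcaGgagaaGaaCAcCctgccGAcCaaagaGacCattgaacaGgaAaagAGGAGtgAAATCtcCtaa
The whole of each thymosin, the start codon and the stop codon included, is printed above with the differing bases in capitals. Both encode 44 residues.

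All 10 genes were higher on average in the hypertensive-LVH group, and 7 of them were upregulated at an adjusted p under 0.05 (limma on log2(FPKM + 1), all 24 samples). Of the 14026 genes tested, 20.9% were called higher, 12.6% lower, and 63.8% had a positive log2 fold change. The 7 were Actb, Actg1, Tmsb4x, Tmsb10, Cfl1, Arpc1b and Capg, whereas Pfn1, Coro1a and Lcp1 missed the threshold, and 0 of the 10 were called lower, with 0 lower at an unadjusted p under 0.05. The median log2 fold change of the 10 genes was 0.45, beside 0.05 over all genes tested. Only Tmsb10, Arpc1b and Capg also passed the study's additional threshold of a log2 fold change over 0.5, which 4.52% of the tested genes passed in this direction. The 2 groups overlapped for each of the 10 genes, as they did for all but 0.271% of the tested genes in this direction and 0.485% in the other. All 10 log2 fold changes stayed positive after median-ratio scaling and after quantile normalization.

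**Figure D1:**
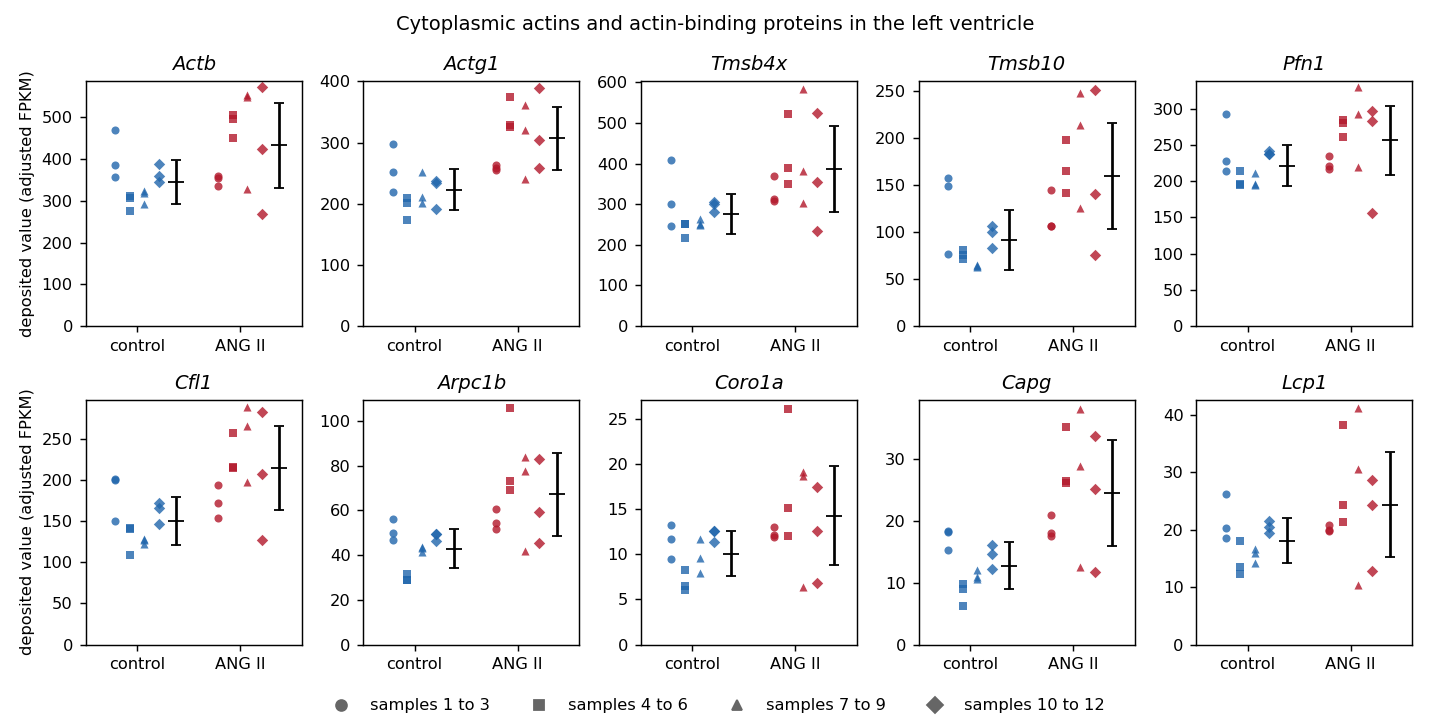
Deposited value (adjusted FPKM, y axis from 0) of each of the 10 genes in each sample, with control samples in blue and ANG II-infused samples (hypertensive-LVH group) in red, 12 per group. Marker shapes show the 4 sets of samples, and the black bar is the mean with its SD. The groups overlap in every panel, control samples of set 1 to 3 lie high for most genes, and either ANG II sample 9 or 12 is the lowest of its group for each gene.

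Beta-actin, encoded by Actb on the minus strand of chromosome 5 (142903115 to 142906754, GRCm38), had the highest level of the 10 genes. Its FPKM ranged from 268.5 to 571.9 after ANG II (median 436.9) and from 275.5 to 470.5 in control mice (median 334.5). The ranges overlapped, and the lowest value of all 24 samples belonged to ANG II sample 12, but 5 ANG II samples exceeded every control sample. The log2 fold change was 0.30 (SE 0.114, limma adjusted p = 0.0414). It was 0.17 without samples 4 to 6 (adjusted p = 0.39) and 0.21 without samples 7 to 9 (0.208). Leaving out any 1 of 13 samples took the adjusted p above 0.05. These were samples 4, 5, 6, 7, 8 and 11 of the hypertensive-LVH group and samples 4, 5, 6, 7, 8, 9 and 11 of the control group, and the adjusted p over all 24 omissions ran from 0.00952 to 0.0765.

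Gamma-actin, encoded by Actg1 on the minus strand of chromosome 11 (120345690 to 120348542), was upregulated as well. Its FPKM ranged from 240.9 to 389.9 after ANG II, with a median of 312.8, and from 174.0 to 298.0 in control mice, with a median of 214.8. Every ANG II sample lay above the control median, and 9 of 12 control samples lay below the lowest ANG II sample. Its log2 fold change was 0.45 (SE 0.0882, limma adjusted p = 0.000438), and the call held when each of the 24 samples was left out in turn. The change was 0.33 without samples 4 to 6 (adjusted p = 0.023). The ratio of Actb to Actg1 was 1.41 ± 0.207 in the hypertensive-LVH group and 1.55 ± 0.154 in the control group (SD, n = 12). Its log2 difference of −0.15 did not pass the test (two-sided permutation p = 0.0665, 0.0855 after adjustment over the 9 ratios compared). Without samples 7 to 9 the difference was −0.24 and passed (permutation adjusted p = 0.0165). Within samples 7 to 9 it had the other sign, at 0.11. ANG II sample 12 was the only library in which beta-actin lay below gamma-actin, with a ratio of 0.881.

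The muscle actins moved in both directions. Acta1, skeletal alpha-actin and a fetal isoform in the heart, had a log2 fold change of 1.96 (limma adjusted p = 0.000311) and the gamma smooth muscle isoform Actg2 one of 0.65 (0.0165), while the cardiac isoform Actc1 had −0.30 (0.0254), which became 0.07 under quantile normalization. Neither Actg2 (0.25, adjusted p = 0.339) nor Actc1 (−0.21, 0.246) was called without samples 4 to 6. Of the summed FPKM of the 6 actins, the cytoplasmic ones made up 6.18% ± 1.62 after ANG II, with a range of 3.74% to 9.24%, and 4.32% ± 0.658 in control mice, with a range of 3.34% to 5.35% (SD, n = 12). The log2 ratio of cytoplasmic to muscle actins was higher by 0.51 after ANG II (permutation p = 0.001, adjusted p = 0.003), and 8 ANG II samples exceeded every control sample. Without samples 4 to 6 the difference was 0.32 and missed the threshold (permutation adjusted p = 0.0906).

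Both beta-thymosins, which sequester monomeric actin, were upregulated. Tmsb4x (chromosome X, 167207093 to 167209315, minus strand) ranged from 234.8 to 584.7 FPKM after ANG II, with a median of 362.4, and from 216.5 to 408.0 in control mice, with a median of 257.7. All but 1 of the ANG II samples lay above the control median, yet only 3 exceeded the highest control sample, which was control sample 3. Its log2 fold change was 0.45 (SE 0.122, limma adjusted p = 0.00653). Without samples 4 to 6 it was 0.34 (adjusted p = 0.104), and without samples 7 to 9 it was 0.38 (0.0518).

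Tmsb10 (chromosome 6, 72957347 to 72958748, minus strand) had the second largest change of the 10 genes over all samples. Its FPKM ranged from 75.3 to 251.1 after ANG II (median 143.4) and from 63.3 to 157.0 in control mice (median 79.0). Control samples 2 and 3 were high, at 157.0 and 149.4, and 5 ANG II samples exceeded both. This gave a log2 fold change of 0.78 (SE 0.186, limma adjusted p = 0.00242), or 1.75 times the control mean on the FPKM scale. Without samples 4 to 6 it was 0.67 (adjusted p = 0.0493), and without samples 7 to 9 it was 0.53 (0.0564). Within the samples Tmsb10 rose relative to Tmsb4x, from a ratio of 0.325 ± 0.0749 in control mice to 0.407 ± 0.0681 after ANG II (SD, n = 12, permutation p = 0.00601, adjusted p = 0.0135). Every ANG II sample lay above the control median of this ratio. Without samples 4 to 6 the log2 difference was as large (0.33 in both cases) but the permutation adjusted p was 0.0906. Without samples 7 to 9 it was 0.16 (0.202). By set the log2 difference was −0.12, 0.33, 0.86 and 0.27, in the order of their numbers.

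Profilin 1 and cofilin 1 act at opposite steps of the filament cycle, and of them Cfl1 passed the test and Pfn1 did not. Pfn1 (chromosome 11, 70651850 to 70654644, minus strand) ranged from 156.9 to 329.9 FPKM after ANG II, with a median of 271.4, and from 194.9 to 292.4 in control mice, with a median of 213.8. The lowest value of all samples was that of ANG II sample 12, while 11 ANG II samples lay above the control median. The fitted log2 fold change was 0.19 (SE 0.0936, 95% interval 0.0023 to 0.39, limma adjusted p = 0.108). Leaving out ANG II sample 12 brought the adjusted p to 0.0124, the only single omission that gave a call. The log2 fold change was 0.11 without samples 4 to 6 (adjusted p = 0.53) and without samples 7 to 9 it was 0.11 (0.463), whereas it was 0.30 without samples 1 to 3 (0.0447) and 0.27 without samples 10 to 12 (0.0385). Whether the changes of Pfn1 and Cfl1 differ from each other was not tested.

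Cfl1 (chromosome 19, 5490455 to 5495201, plus strand) ranged from 127.1 to 288.5 FPKM after ANG II, with a median of 210.3, and from 108.6 to 200.8 in control mice, with a median of 143.7. Here 7 ANG II samples exceeded every control sample. The log2 fold change was 0.495 (SE 0.123, limma adjusted p = 0.00348), just under the additional threshold of 0.5. It was 0.39 without samples 4 to 6 (adjusted p = 0.0711) and 0.34 without samples 7 to 9 (0.0751). Cfl2, the muscle isoform of cofilin, was upregulated as well, with a log2 fold change of 0.30 and a smaller spread (SE 0.0432, adjusted p = 2.15e-05). The ratio of Cfl1 to Cfl2 did not pass the test (log2 difference 0.20, permutation p = 0.184, adjusted p = 0.207). Without samples 10 to 12 the difference in this ratio was 0.34 and passed (permutation adjusted p = 0.0496). By set it was −0.33, 0.66, 0.69 and −0.22, in the order of their numbers. The other profilin, Pfn2, did not pass the test at −0.08 (limma adjusted p = 0.263). Pfn1 rose relative to Pfn2 by 0.28 on the log2 scale (permutation p = 0.0128, adjusted p = 0.023). This was 0.25 with an adjusted p of 0.129 without samples 4 to 6, and 0.10 (0.261) without samples 7 to 9.

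Arpc1b encodes a subunit of the Arp2/3 complex that is abundant in blood cells, and its paralog Arpc1a supplies the same position in most other cells. Arpc1b (chromosome 5, 145114215 to 145130705, plus strand) ranged from 41.8 to 105.8 FPKM after ANG II, with a median of 64.7, and from 29.0 to 56.1 in control mice, with a median of 45.0. The highest value was that of ANG II sample 6, and 8 ANG II samples exceeded every control sample. By limma the log2 fold change was 0.61 (SE 0.136, limma adjusted p = 0.00145), and it was 0.35 without samples 4 to 6 (0.0462). Arpc1a gave −0.05 (0.422), so that the ratio of Arpc1b to Arpc1a went from 1.31 ± 0.226 in the control group to 2.11 ± 0.407 in the hypertensive-LVH group (SD, n = 12). This difference passed the permutation test (p = 2e-05, adjusted p = 9e-05), 11 ANG II samples exceeded every control sample, and it held without samples 4 to 6 (0.47 on the log2 scale against 0.66 over all samples, adjusted p = 0.000675).

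Coronin 1A, a regulator of the Arp2/3 complex made mainly by leukocytes, had the lowest level of the 10 genes. Coro1a (chromosome 7, 126699773 to 126707787, minus strand) ranged from 6.37 to 26.2 FPKM after ANG II, with a median of 12.8, and from 6.09 to 13.2 in control mice, with a median of 10.5. ANG II sample 6 had the highest value of all, while sample 9 lay below 11 and sample 12 below 10 of the 12 control samples. The fitted log2 fold change was 0.41 (SE 0.174, 95% interval 0.056 to 0.77, limma adjusted p = 0.0676). Leaving out ANG II sample 9 gave an adjusted p of 0.0178, and leaving out sample 12 gave 0.0232. The change itself was 0.16 without samples 4 to 6 (adjusted p = 0.558), and without samples 10 to 12 it was 0.57 (0.0372). The ratio to the widely expressed Coro1b was higher by 0.27 on the log2 scale (permutation p = 0.0221, adjusted p = 0.0332), and by 0.23 without samples 4 to 6 (adjusted p = 0.116).

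Capg, a capping protein of the gelsolin family that is prominent in macrophages and that blocks filament ends without severing them, had the largest change of the 10 genes over all samples, but not without samples 4 to 6, where Tmsb10 had a larger one. Capg (chromosome 6, 72544391 to 72562983, plus strand) ranged from 11.7 to 37.9 FPKM after ANG II, with a median of 25.5, and from 6.16 to 18.2 in control mice, with a median of 12.0. Control samples 2 and 3 were the highest controls, and 8 ANG II samples exceeded both. Over all samples the log2 fold change was 0.86 (SE 0.184, limma adjusted p = 0.00101), or 1.92 times the control mean on the FPKM scale, and it was 0.58 without samples 4 to 6 (0.0394). Gelsolin itself, Gsn, which severs and caps filaments, was downregulated, from 639.2 ± 79.9 to 457.8 ± 95.6 FPKM (SD, n = 12, log2 fold change −0.49, adjusted p = 0.000302). The ratio of Capg to Gsn shifted further than each of the other 8 ratios, by 1.35 on the log2 scale (permutation p = 2e-05, adjusted p = 9e-05), with all 12 ANG II samples above the control median and 10 above every control sample. The shift was 1.19 without samples 4 to 6 (adjusted p = 0.000675).

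L-plastin, encoded by Lcp1, bundles filaments in leukocytes. Lcp1 (chromosome 14, 75131101 to 75230842, plus strand) ranged from 10.4 to 41.1 FPKM after ANG II, with a median of 22.8, and from 12.2 to 26.3 in control mice, with a median of 18.2. The ANG II group held both the lowest value (sample 9) and the highest (sample 8) of all 24 samples. The log2 fold change was 0.35 (SE 0.17, 95% interval −0.0012 to 0.70, limma adjusted p = 0.113), and leaving out ANG II sample 9 or 12 brought the adjusted p to 0.024 and 0.0487. Its size was 0.17 without samples 4 to 6 (adjusted p = 0.556). T-plastin, encoded by Pls3 and found in non-hematopoietic cells, was upregulated by 0.50 (adjusted p = 0.000474). The ratio of Lcp1 to Pls3 did not pass the test (log2 difference −0.15, permutation p = 0.356, adjusted p = 0.356). In all, 6 of the 9 ratios passed, and the same 6 passed when labels were exchanged only within the sets.

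**Figure D2:**
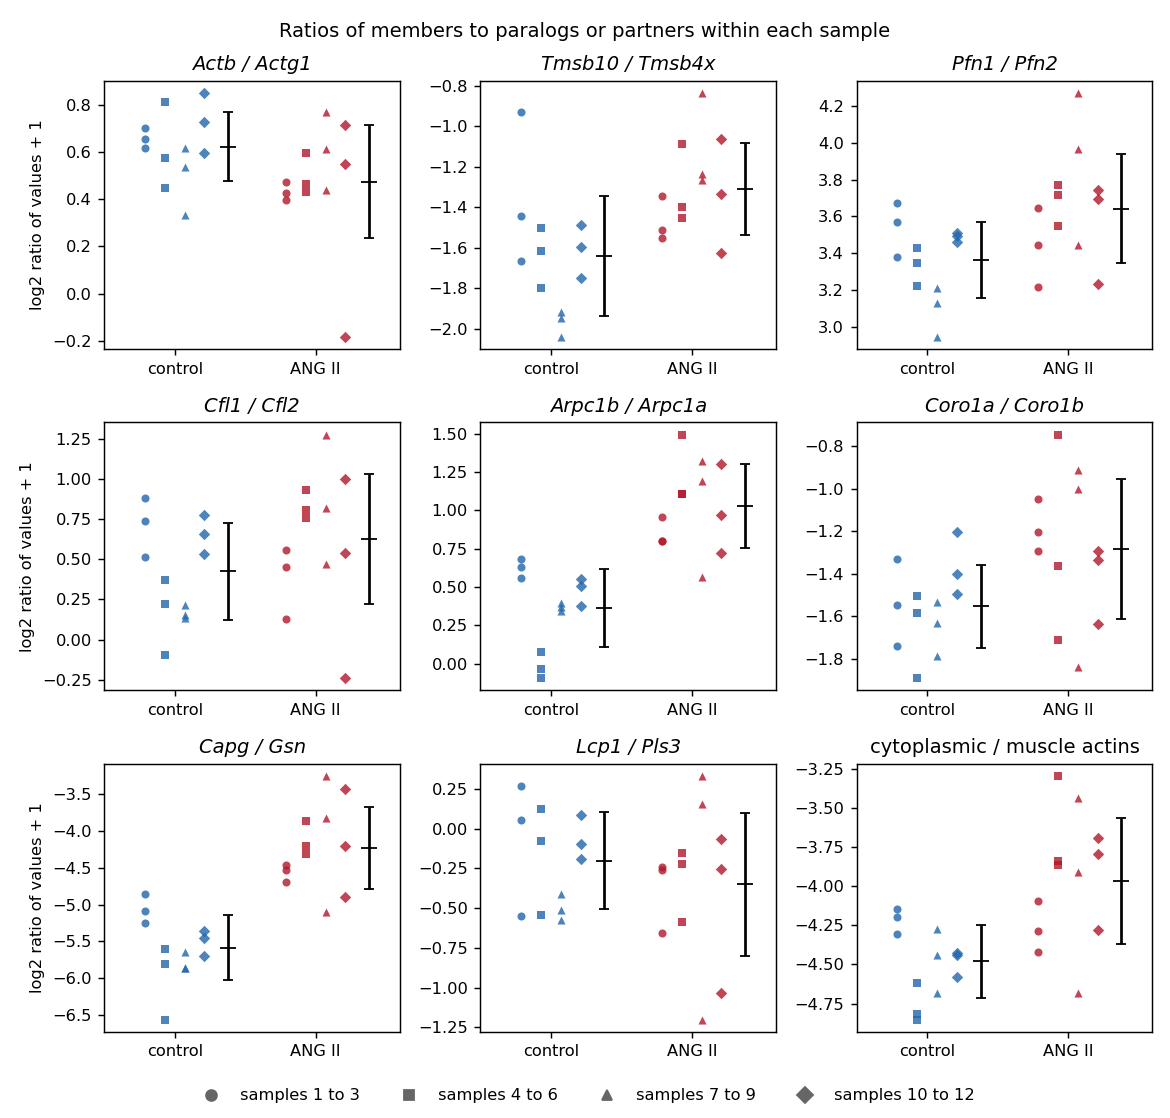
Log2 ratio of values + 1 (y axis) within each sample for 8 pairs of genes and for the summed cytoplasmic over the summed muscle actins, control in blue and ANG II (hypertensive-LVH group) in red, 12 per group, with the mean and SD in black. Marker shapes show the sets of samples. The groups separate most clearly for Arpc1b / Arpc1a and Capg / Gsn, and not for Actb / Actg1, Cfl1 / Cfl2 or Lcp1 / Pls3.

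The order of the levels was nearly the same in both groups. In control mice the means fell from Actb (344.4 ± 53.1 FPKM) through Tmsb4x, Actg1, Pfn1, Cfl1, Tmsb10, Arpc1b, Lcp1 and Capg to Coro1a (10.1 ± 2.47 FPKM, SD, n = 12). FPKM is scaled to length, but these values were also adjusted gene by gene, so the order is one of adjusted values. The neighbours Actg1 and Pfn1 could not be ordered in the control group, where Actg1 was above Pfn1 in 6 of 12 samples, and Capg was above Coro1a in 9 of 12. Each other gene of the order was above the next in all 12 control samples. In the hypertensive-LVH group Actg1 was above Pfn1 in 11 of 12 samples, and Capg was above Lcp1 in 6 of 12 samples, whereas it was below it in every control sample. Actb was above Tmsb4x in 9 of 12 ANG II samples, and Tmsb4x above Actg1 in 11.

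The group difference was uneven across the sets. In samples 4 to 6 all 10 genes were higher after ANG II without overlap, where 38.5% of the tested genes were, and in samples 7 to 9 this held for 6 genes (10.2% of genes). Tested alone by limma, the first of these sets gave 10 calls (22.1% of genes) and the second 2 (2.49% of genes), Tmsb10 and Cfl1. In samples 10 to 12 it held for 1 gene, Actg1 (10.0% of genes), and in samples 1 to 3 for 0 genes (6.97% of genes). Actb had means of 349.8 against 404.8 FPKM in samples 1 to 3, with ANG II the lower, but of 483.6 against 297.9 in samples 4 to 6. Taken alone, samples 1 to 3 gave 0 calls among the 10 genes by limma, with 0 at an unadjusted p under 0.05 and 5 of 10 log2 fold changes above 0 (48.6% of genes), and 0 of 14028 genes were called. Samples 10 to 12 alone gave 0 calls, 1 gene at an unadjusted p under 0.05 and 8 of 10 above 0 (55.8% of genes), beside 0.136% of genes called higher.

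**Figure D3:**
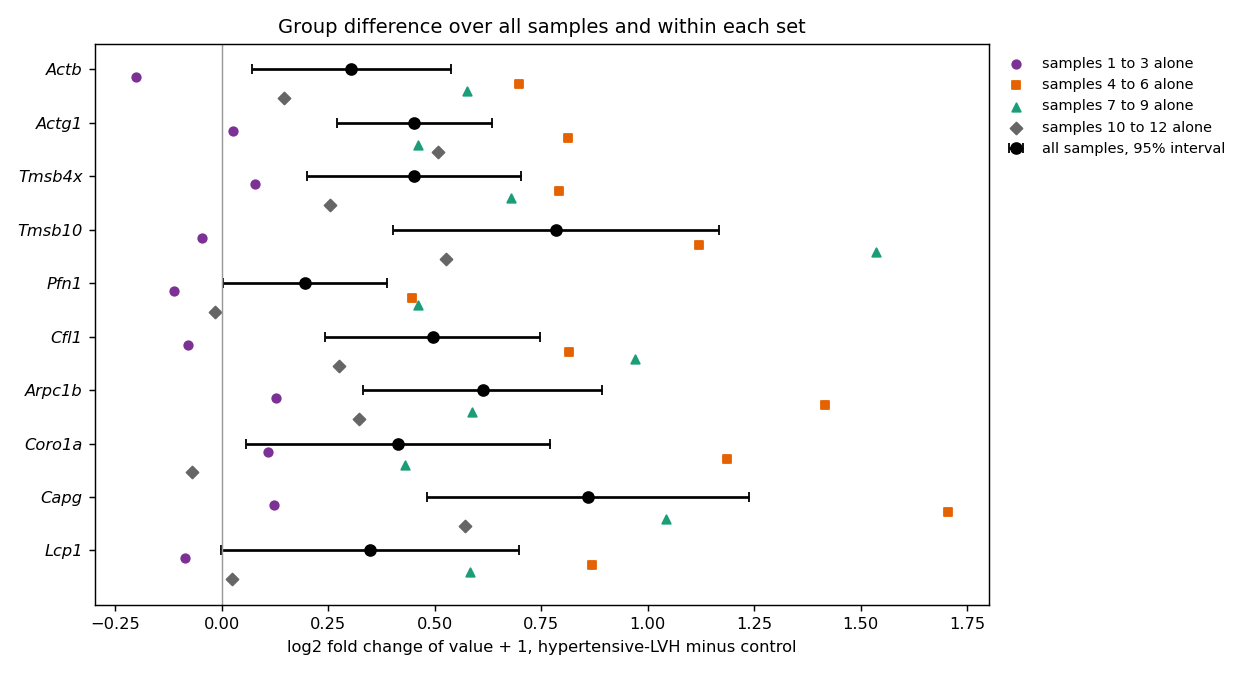
Log2 fold change of the value + 1 (x axis, hypertensive-LVH minus control) for the 10 genes, with the estimate over all 24 samples and its 95% interval in black and the estimates within each set of 6 samples as colored markers. The estimates from samples 4 to 6 and 7 to 9 lie to the right of those from samples 1 to 3 for every gene, and those from samples 1 to 3 lie between −0.20 and 0.13.

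The test of this unevenness itself, the interaction of group and set, passed for 1 of the 10 genes. Arpc1b had an adjusted p of 0.0336, and its log2 fold change was 0.13 in the first set, 1.42 in the second, 0.59 in the third and 0.32 in the fourth (the sets in the order of their numbers). Among all tested genes 7.49% passed. The adjusted p was 0.0615 for Cfl1, 0.0952 for Tmsb10, 0.0958 for Capg and up to 0.394 for the others, and for Arpc1b it became 0.061 under median-ratio scaling and 0.0515 under quantile normalization. Leaving out samples 4 to 6 left 4 calls among the 10 genes (Actg1, Tmsb10, Arpc1b and Capg), beside 8.40% of genes called higher. Leaving out samples 7 to 9 left 3 (Actg1, Arpc1b and Capg), beside 17.8% of genes, while leaving out ANG II sample 12 gave 10, beside 21.1% of genes.

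The differences within the sets could also be read before the adjustment, because FPKM rounded to 0.01 leaves evenly spaced values from which the scale of each set can be recovered. This worked for 12947 genes (92.3%), all 10 genes included. Actb differed by −103.5, 167.8, 151.9 and 51.1 FPKM in the sets in the order of their numbers, so ANG II was lower in the first set and higher in the others. Capg differed by −2.20, 19.7, 15.3 and 9.03 FPKM in the same order. In samples 1 to 3, 9 of the 10 genes were lower after ANG II (58.4% of genes), the exception being Coro1a at 0.06 FPKM, and 9 of the 10 were higher in all the other sets (37.8% of genes), the exception being Pfn1 at −4.95 FPKM in samples 10 to 12. After the adjustment Actg1 (2.57), Tmsb4x (11.6), Arpc1b (4.7) and Capg (1.62) were higher after ANG II in samples 1 to 3. Before it they had differed there by −28.7, −21.7, −2.90 and −2.20 FPKM. The other genes kept their sign in that set. An exact permutation test of the differences before the adjustment, within the sets (160000 relabelings, two-sided), called 4 of the 10 genes higher, beside 17.9% of genes. These were Arpc1b (adjusted p = 0.0124), Actg1 (0.016), Capg (0.0186) and Cfl1 (0.0476). Tmsb10 (0.0533), Tmsb4x (0.0586) and Coro1a (0.0658) followed, and Actb had 0.194.

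Of the other genes of the actin machinery 132 were tested, with the muscle actins included. They were called higher in 76 cases and lower in 6, with a median log2 fold change of 0.22. Over all tested genes 20.9% were called higher and 12.6% lower, shares that also stand beside the lists below. Without samples 4 to 6 the count of higher calls was 35, beside 8.40% of all genes. Of the 9 other Arp2/3 subunits 6 were upregulated, led by Arpc5 (0.46, adjusted p = 0.00056) and Arpc2 (0.37, 6.95e-06), and the brain-type subunit Actr3b was downregulated (−0.39, 0.0012). Among nucleation-promoting factors and formins 16 of 29 rose and 1 fell. The hematopoietic genes Nckap1l (0.67, 0.00137), a subunit of the WAVE complex, and Hcls1 (0.54, 0.000361), a cortactin relative, had the largest increases, and Cyfip2 (−0.35, 0.00453), also of the WAVE complex, was the one that fell.

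Of 29 proteins tested that bind monomers, sever filaments or take them apart, 11 rose and 2 fell, with a median of 0.10. The increases were led by Ssh3 (0.46, limma adjusted p = 0.00102), a cofilin phosphatase of the slingshot family, and Coro2a (0.44, 0.00307), and the genes that fell were Gsn and the testis profilin Pfn4 (−0.25, 0.0416, and 0.197 without samples 4 to 6). Of 12 capping proteins 5 rose and 1 fell. Capza1 (0.34, 0.000615), of the barbed-end capping protein, and Lmod2 (0.33, 0.0398), a leiomodin of the thin filament, rose, and its relative Lmod3 fell (−0.34, 0.00916).

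Bundling, crosslinking and membrane-linking proteins gave the most calls of these lists. Here 21 of 27 rose and 0 fell, with a median of 0.34, led by the non-muscle alpha-actinin Actn1 (0.82, limma adjusted p = 0.000387) and Tagln2 (0.73, 3.82e-05), transgelin 2. The serum response factor, which drives transcription of actin genes when its cofactors are freed from monomeric actin, did not pass the test at the RNA level (Srf −0.03, limma adjusted p = 0.746). Its cofactor Mkl1 was upregulated (0.34, 0.00395, and 0.15 with 0.121 without samples 4 to 6), Mkl2 gave 0.14 (0.104), and Myocd gave −0.0016 (0.993), a value whose sign turned when single samples were left out.

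**Figure D4:**
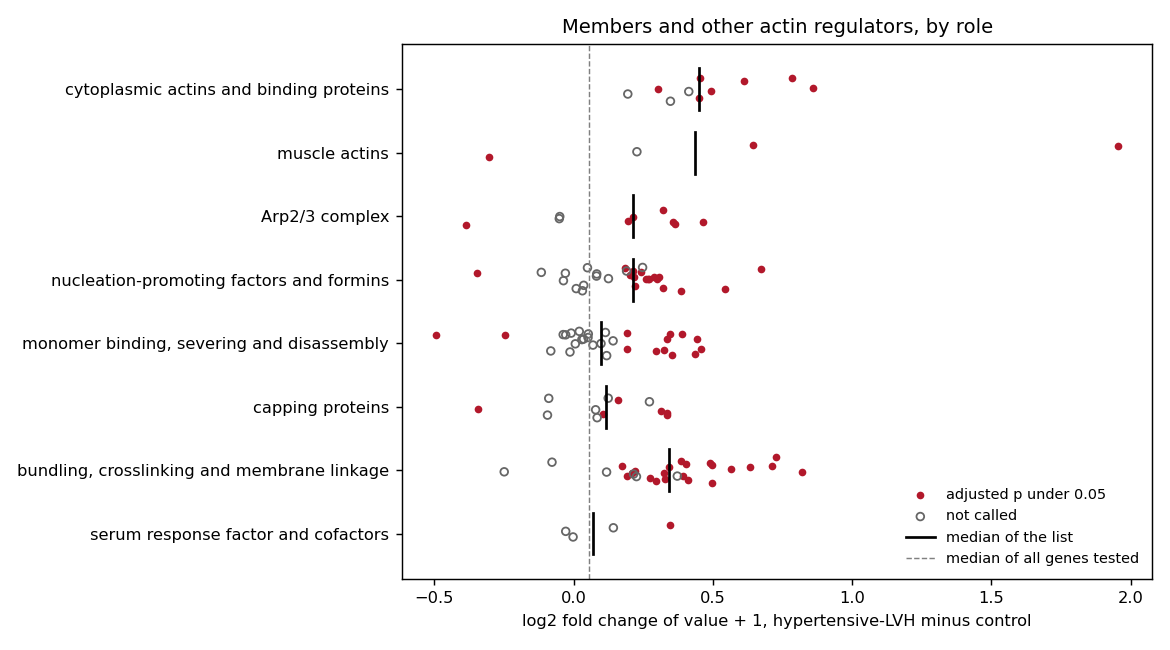
Log2 fold change of the value + 1 (x axis, hypertensive-LVH minus control) for the 10 genes, the muscle actins and 6 lists of other actin regulators (rows), 1 point per gene. Filled points passed an adjusted p of 0.05 by limma, open points did not, the black bar is the median of the list and the dashed line the median of all 14026 genes tested (0.05). The median of each row lies to the right of the dashed line.

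The promoter of Actg1 is shown because it held the only CArG box, the binding motif of the serum response factor, found in the upstream sequences searched. RefSeq promoters (GRCm38.p6) were available for 9 of the 10 genes, with 13 start sites. Actb was not searched. In the 250 bases before the start site, a CArG box was found in 1 of the 13, beside 1.47% of the 32851 promoters searched. It began 90 bases before the start of Actg1 and lies in capitals in the stretch from 150 to 51 bases before that start, chr11:120348546-120348645, minus strand.
Actg1: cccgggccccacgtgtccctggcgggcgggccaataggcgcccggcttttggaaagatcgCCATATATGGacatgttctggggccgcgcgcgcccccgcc
The letters CATTCC, a TEAD motif read on both strands, were found before 1 start site each of Pfn1 and Lcp1 (12.6% of all promoters), and GAGGAAGT, a motif of the myeloid factor PU.1 read on both strands, before none of them (2.44% of all promoters). No motif overlapped another. A match is a description of the letters and not of a factor at the site.

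The 10 genes varied together within the groups. With the mean of each group removed, Pearson's r of log2(FPKM + 1) over the 24 samples ranged from 0.51 (Actg1 and Lcp1) to 0.95 (Tmsb10 and Cfl1) in the 45 pairs, with a median of 0.81. With the mean of each group in each set removed, the median was 0.78. These samples share their libraries and the adjustment of the table, so the values are a description. Actg1 was the least tied to the others, with r between 0.51 and 0.76, and the leukocyte genes Coro1a and Lcp1 reached 0.93 with each other.

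**Figure D5:**
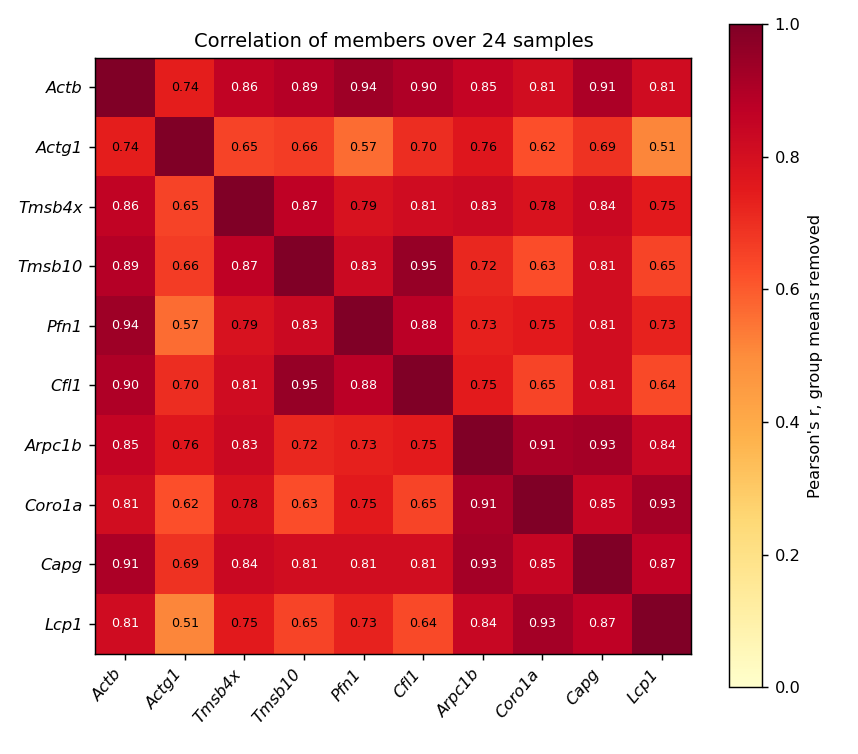
Pearson's r of log2(FPKM + 1) between the 10 genes (rows and columns) over 24 samples, with group means removed, as numbers and on a color scale from 0 to 1. Darker cells show higher r, the row of Actg1 is the palest, and the darkest pair is Tmsb10 with Cfl1 at 0.95.

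The same measure was taken between each of the 10 genes and every other tested gene. Coro1a was most like Ptpn6 (r = 0.96), Cyth4 (0.96) and Sash3 (0.94), and Lcp1 was most like Ptpn6 (0.97), Selplg (0.95) and Lrrc25 (0.94). Capg was nearest to Rgs10 (0.98), Ctsz (0.95) and S100a6 (0.95), and Arpc1b to Ctsz (0.97), Ror2 (0.96) and Tmem176a (0.96). Actb was nearest to Prelid1 (0.97), Arpc4 (0.97) and Dbnl (0.95), of which Arpc4 and Dbnl encode an Arp2/3 subunit and an actin-binding adaptor. Actg1 had lower values, with Colgalt1 (0.86), Ankrd54 (0.86) and the Arp2/3 subunit Arpc3 (0.86). Tmsb10 was nearest to Cfl1 (0.95), Myl6 (0.94) and Tagln2 (0.93), and Cfl1 to Tagln2 (0.96), Tmsb10 (0.95) and Bak1 (0.94). Tmsb4x was nearest to Cnpy2 (0.93), Rpl26 (0.93) and Ppia (0.93), and Pfn1 to Ddost (0.95), Ap2m1 (0.95) and Rpl41 (0.94).

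Markers of leukocytes moved with these genes. Of 10 leukocyte markers 8 were called higher, beside 20.9% of all tested genes. Ptprc (log2 fold change 0.16, limma adjusted p = 0.259) and Cytip (0.28, 0.112) were not called. The summed FPKM of the 10 leukocyte markers ranged from 110.6 to 340.1 after ANG II, with a median of 184.5. In control mice it ranged from 72.9 to 151.5, with a median of 104.9. All 12 macrophage markers were called higher, with sums of 360.9 to 1094 and a median of 657.1 after ANG II, and of 276.4 to 622.8 and a median of 403.2 in control mice. Each leukocyte and macrophage marker had a mean above 0.1 FPKM. In samples 1 to 3 the leukocyte sums averaged 166.8 after ANG II and 139.9 in control mice, and in samples 4 to 6 they averaged 239.3 and 75.4. The macrophage sums averaged 537.5 and 525.5 in samples 1 to 3, and 821.6 and 289.8 in samples 4 to 6. ANG II samples 9 and 12, one or other of which was the lowest of its group for each of the 10 genes, had the 2 lowest leukocyte sums of their group (110.6 and 121.8), and sample 6 had the highest (340.1). Sample 12 also had the lowest sum over all genes (460715). It was the lowest of its group for genes of other cells too, such as Actc1 (6504 FPKM) and Cdh5 (82.7), but not for Pecam1. The cardiomyocyte sum of sample 9 was the highest of its group (55980), beside 45390 in sample 12 and 39500 in sample 6.

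The correlation with the leukocyte markers differed in size among the genes. With group means removed over the 24 samples, the median r with the 10 leukocyte markers was 0.86 for Lcp1, 0.86 for Coro1a, 0.84 for Arpc1b and 0.81 for Capg, and it was 0.73 for Tmsb4x, 0.72 for Actb, 0.65 for Tmsb10, 0.65 for Cfl1, 0.63 for Pfn1 and 0.56 for Actg1. One of these markers, Cytip, had a negative r with 9 of the 10 genes, down to −0.50 with Pfn1, and 0.06 with Actg1. With the 12 macrophage markers the median r ran from 0.54 for Actg1 to 0.89 for Coro1a and was 0.80 for Actb, and Cd163 had the lowest r for each gene, from −0.35 with Pfn1 to 0.17 with Lcp1. The same measure with the 10 fibroblast markers was highest for Arpc1b (0.71) and lowest for Tmsb10 (0.30). With the 8 mitotic markers it ran from 0.13 for Coro1a to 0.62 for Tmsb10, and it was 0.60 for Cfl1. With the 10 smooth muscle and pericyte markers it ran from 0.35 for Pfn1 to 0.60 for Arpc1b. With the 10 endothelial markers it ran from 0.20 for Lcp1 to 0.43 for Actb. With the 12 cardiomyocyte markers it was negative for every gene, from −0.38 for Actg1 to −0.07 for Pfn1. The part of leukocytes in the group differences of these genes was not tested.

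Markers of other cell types were also tested, beside 20.9% of all tested genes called higher and 12.6% called lower. The called fibroblast markers include Col1a1, Col1a2 and Col3a1, whose negative control values in samples 4 to 6 were set to 0. Among fibroblast markers 5 of 10 were called higher, with sums of 788.8 to 2887 after ANG II and of 217.1 to 1135 in control mice, and among markers of mitotic cells 7 of 8 were, with sums of 14.1 to 37.2 and of 5.34 to 13.6. Of the 12 cardiomyocyte markers 0 were called higher and 5 lower, with sums of 38110 to 55980 after ANG II and of 51020 to 69950 in control mice. Smooth muscle and pericyte markers gave 3 higher and 2 lower of 10, and endothelial markers 1 and 1 of 10. T and B cell markers gave 2 and 1 of the 10 tested, neutrophil markers 1 higher of the 5 tested and platelet markers 1 of 6. The endothelial, T and B cell, neutrophil and platelet counts were near or below the shares over all genes. Red blood cell markers were called higher in 5 of 6, with sums of 779.3 to 6445 and of 92.3 to 2949. Of 4 atrial markers 1, Nppa, was called higher. Control sample 2, the highest control for Tmsb10, had an atrial sum of 8105 against at most 1127 in the other control samples. ANG II sample 6, the highest for Arpc1b and Coro1a, had 6301 against at most 4332 in its group. Nppa gave 4953 and 3998 FPKM of these sums. The other atrial markers, Myl7, Myl4 and Sln, were also highest of their group in these samples. They had 1443, 1257 and 452.9 FPKM in control sample 2, and 1040, 966.9 and 296.1 in ANG II sample 6. The paper names the product of Nppa, atrial natriuretic peptide, among genes activated in cardiomyocytes during remodeling. Negative values entered as 0, which left sums of 0 in control samples 1, 3, 4 and 6. Without control sample 2 the log2 fold change of Tmsb10 was 0.86 (limma adjusted p = 0.000741), and without ANG II sample 6 that of Arpc1b was 0.55 (0.00257) and that of Coro1a 0.33 (0.126). The part of these cells in the results above was not tested.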

How the data were processed

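Left ventricles of 12 ANG II-infused and 12 saline-infused mice were analysed. The authors selected mRNA with oligo(dT), sequenced paired ends of 150 bases and deposited FPKM per gene and sample, in which the processing notes name HISAT, Bowtie2 and RSEM. The genome build and tool versions are not given in the sources used here. The deposited FPKM had been adjusted in 4 sets of 6 samples, a step the methods do not name, and 2741 values (0.766%) were negative. How that step treated the groups is not given in the sources used here. The recovery of the values before it took a group difference as set aside before each set was scaled (95.8 FPKM for Actb). Tests of the deposited values leave the step out of account. Replicate numbers did not pair the samples.

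Negative values were set to 0, and limma 3.58.1 (R 4.3.3, intensity trend) was run on log2(FPKM + 1) for 14026 genes with a mean of at least 0.1. This log2 scale understates changes of low genes. P-values were adjusted over all genes by the Benjamini-Hochberg method and calls made at 0.05. Ratios used 100000 permutations with a pseudocount of 1. All tests were two-sided. Apart from the test before the adjustment, the p-values rest on the spread of adjusted values between these mice, 1 library each. The adjustment scaled each gene set by set, so this spread need not equal that of the values before it. The tests were checked on simulated data. The values simulated for limma held no adjustment by sets, so that check does not cover its effect on the p-values. The genes, lists, ratios and tests were chosen with earlier results of these data known. Besides the 10 genes and the serum response factor list, the text names from each list the 2 genes with the largest called increase and decrease, the paralogs in the ratios, and the 3 genes most correlated with each member. One list of regulators counts in the totals but is not reported here. Symbols were matched to GENCODE vM21. Alternatives tried were no trend, no filter, a filter at a mean of 1, a pseudocount of 0.1, scaling by median ratios or by quantiles, the set as a term, each set alone or left out, each sample left out and a replicate block. The test before the adjustment was added after the data were seen.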

Additional observations from a re-analysis of the deposited data

Results flagged for a closer look

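One result met a rule for a closer look. The group difference of Arpc1b was not the same in the 4 sets of samples, with an adjusted p of 0.0336 for the interaction of group and set (limma). Of all tested genes 7.49% passed this test, near the share of 1 in the 10 genes. Arpc1b did not pass it under median-ratio scaling or under quantile normalization. The means in the hypertensive-LVH and control groups were 55.5 and 50.8 FPKM in samples 1 to 3, 82.7 and 29.8 in samples 4 to 6, 67.9 and 42.9 in samples 7 to 9, and 62.5 and 48.3 in samples 10 to 12. The leukocyte sums in the same sets were 166.8 and 139.9, 239.3 and 75.4, 228.7 and 89.1, and 178.5 and 134.5. The part of the set and of leukocytes in this pattern was not tested. Before the adjustment, the within-set differences of Arpc1b were −2.90, 53.0, 27.6 and 15.3 FPKM.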

How the results depend on the processing

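Of the 10 genes, 7 were called higher and 0 lower. The count of 7 became 0 with samples 1 to 3 alone, 0 with samples 10 to 12 alone, 2 with samples 7 to 9 alone, 4 without samples 4 to 6, 3 without samples 7 to 9, 3 with the additional threshold of 0.5 and 4 before the adjustment. It ran from 6 to 10 when 1 sample was left out.

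For the other actin regulators, 76 higher and 6 lower calls became 0 and 0 with samples 1 to 3 alone, 35 higher without samples 4 to 6, 3 lower without samples 7 to 9, 15 higher with samples 7 to 9 alone, 1 higher and 0 lower with samples 10 to 12 alone, and 13 higher and 0 lower with the additional threshold. They ran from 70 to 81 and from 5 to 7 when 1 sample was left out. For the marker lists, 46 higher and 9 lower became 0 and 0 with samples 1 to 3 alone, 22 higher without samples 4 to 6, 4 lower with samples 4 to 6 alone, 5 lower without samples 7 to 9, 13 and 3 with samples 7 to 9 alone, and 2 and 0 with samples 10 to 12 alone, with 37 to 49 and 8 to 10 over single omissions.

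Of the 9 ratios 6 passed, 2 without samples 4 to 6 and 5 to 7 over single omissions. The interaction was called for 1 gene, and for 0 under median-ratio scaling and under quantile normalization. The replicate numbers did not pair the samples, as 0 of 12 correlations of deviations passed 0.1 (−0.557 to −0.001) and 0 ANG II samples lay closest to their own number. With the replicate block, 6 of the 10 genes, 48 other regulators and 3 ratios were called, beside 11.3% of all tested genes called higher.

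These log2 fold changes turned sign. With samples 1 to 3 alone, Actb gave −0.20, Tmsb10 −0.046, Pfn1 −0.11, Cfl1 −0.080, Lcp1 −0.085, Actg2 −0.0082, Coro1b −0.25, Acta2 −0.25, Actr3b 0.023 and Myocd 0.56. With samples 10 to 12 alone, Pfn1 gave −0.016, Coro1a −0.069, Coro1b −0.013, Acta2 −0.089, Pfn4 0.040 and Myocd 0.080. With samples 4 to 6 alone, Pfn2 gave 0.10 and Arpc1a 0.16, and with samples 7 to 9 alone Srf gave 0.19 and Mkl2 −0.12. Without samples 4 to 6, Coro1b gave −0.077, Srf 0.016 and Myocd 0.17, and without samples 7 to 9, Pfn2 gave 0.0033 and Myocd 0.039. Actc1 gave 0.073 under quantile normalization, and Myocd ran from −0.064 to 0.060 over the omissions of single samples. The cause was not tested. Numbers of reads are not in the files, so no limit of detection can be given.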
